A study of Arabidopsis thaliana with 8 samples.

Results

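A set of 10 regulators at the top of light signalling in *Arabidopsis thaliana* was followed across the RNA-Seq comparisons of an *nf-yc* and *hy5* mutant series. They were taken by AGI identifier for their place in the pathway, with earlier results of these data known: the bZIP gene *HYH* (AT3G17609), the bHLH genes *HFR1* (AT1G02340), *PIF1* (AT2G20180), *PIF3* (AT1G09530), *PIF4* (AT2G43010) and *PIF5* (AT3G59060), the phytochrome genes *PHYA* (AT1G09570) and *PHYB* (AT2G18790), and the cryptochrome genes *CRY1* (AT4G08920) and *CRY2* (AT1G04400). Of these 10 genes, 9 are among the 7948 genes found in at least 1 of the 5 deposited comparison tables, and *CRY1* is in none.

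Whole seedlings of 4 genotypes, all of the Col-0 ecotype, stood for 7 days in constant white light on plates of Gamborg B5 medium, and 2 poly-A RNA libraries were sequenced per genotype, 8 in all. The genotypes were Col-0, *nf-yc triple* (the alleles *nf-yc3-1* with *nf-yc4-1* and *nf-yc9-1*, all insertions), *hy5*, and *nf-yc triple hy5*. The *nf-yc* alleles lower transcript levels and do not remove them. How much NF-YC function *nf-yc triple* keeps was not measured here. Every line other than Col-0 carries its alleles in all cells of the seedling. The authors compared the genotypes in pairs, and a deposited table lists the genes at an adjusted p under 0.05, between 920 and 5180 of about 19115 to 19347 tested. A gene that is not in a table missed that threshold or was not tested.

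Library values were not analysed here, so the tables give no SD, and depth is unknown. Each log2 fold change, p and adjusted p of a single gene below is from the authors' deposited edgeR tables. An approximate 95% interval was computed here from each log2 fold change and its p-value, and it measures the spread between these libraries only. In the text a gene "rose" or "fell" where the table lists it, and is "called" where the change was also at least 1.5-fold. Fewer cells of a type and less RNA per cell cannot be told apart in whole seedlings. The shoot genes *RBCS1A* and *CAB1* and the root genes *PYK10* and *COBL9* are all in the tables, which matches whole seedlings.

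The mutated genes were checked first. *NF-YC3* was at a log2 fold change of -4.08, *NF-YC9* at -2.29 and *NF-YC4* at -0.97 in *nf-yc triple* versus Col-0, and at -3.75, -1.57 and -1.15 in *nf-yc triple hy5* versus *hy5*. *NF-YC9* was also 0.48 higher in *nf-yc triple hy5* than in *nf-yc triple* (adjusted p = 0.0101). These 2 lines therefore differ in remaining *NF-YC9* transcript as well as in *hy5*. *HY5* is in no table, so the transcript of the mutated gene gives no check of the lines that carry *hy5*.

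In light, plants drop the growth habit of darkness: the hypocotyl stops elongating, cotyledons open and chloroplasts form. Phytochromes perceive red and far-red light and cryptochromes perceive blue light. Active phytochromes bind the PIF proteins, bHLH factors that promote growth in darkness and shade, and lead to their degradation, while both photoreceptor families restrain the COP1/SPA ubiquitin ligase, which otherwise degrades HY5, HYH and HFR1. HY5 is a bZIP factor that binds ACGT-core elements such as the G-box, and NF-Y complexes, of which NF-YC is 1 subunit, bind CCAAT boxes.

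The promoters of 5 of the regulators are shown because the results turn on these genes. *HYH*, *HFR1*, *PIF5* and *PHYB* fell with loss of *HY5* in both backgrounds, and *PIF4* changed with *nf-yc* loss. Each sequence is the 250 bases before the annotated gene start, 5′ to 3′ on the strand of the gene, from the RefSeq TAIR10.1 assembly. Capitals mark CCAAT (or ATTGG, its other strand), CACGTG and ACGT. The ACGT core lies within every CACGTG.
HYH (chr3:6023594-6023843, + strand): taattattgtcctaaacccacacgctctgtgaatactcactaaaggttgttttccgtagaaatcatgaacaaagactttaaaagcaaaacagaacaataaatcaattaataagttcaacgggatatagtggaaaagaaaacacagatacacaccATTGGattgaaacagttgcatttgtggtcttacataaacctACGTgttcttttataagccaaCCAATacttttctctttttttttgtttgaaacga
HFR1 (chr1:467881-468130, - strand): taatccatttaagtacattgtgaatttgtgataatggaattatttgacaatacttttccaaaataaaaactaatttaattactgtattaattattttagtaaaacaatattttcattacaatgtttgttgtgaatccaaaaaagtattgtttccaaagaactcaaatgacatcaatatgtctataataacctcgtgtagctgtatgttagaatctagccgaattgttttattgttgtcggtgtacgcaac
PIF4 (chr2:17885851-17886100, + strand): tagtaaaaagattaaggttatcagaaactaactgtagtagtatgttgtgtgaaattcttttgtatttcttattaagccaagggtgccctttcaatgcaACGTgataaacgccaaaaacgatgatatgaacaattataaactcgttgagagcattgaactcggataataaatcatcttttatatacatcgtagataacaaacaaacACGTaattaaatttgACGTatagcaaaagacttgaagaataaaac
PIF5 (chr3:21830838-21831087, - strand): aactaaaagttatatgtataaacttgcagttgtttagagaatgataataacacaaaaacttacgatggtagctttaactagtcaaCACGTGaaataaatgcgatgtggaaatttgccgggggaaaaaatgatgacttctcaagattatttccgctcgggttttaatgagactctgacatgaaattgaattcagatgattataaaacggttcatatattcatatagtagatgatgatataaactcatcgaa
PHYB (chr2:8139506-8139755, + strand): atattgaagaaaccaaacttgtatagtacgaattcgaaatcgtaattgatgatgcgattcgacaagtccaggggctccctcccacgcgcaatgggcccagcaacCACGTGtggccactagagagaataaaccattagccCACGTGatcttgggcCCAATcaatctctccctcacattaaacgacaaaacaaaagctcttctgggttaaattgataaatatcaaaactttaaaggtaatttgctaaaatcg
The *HYH* window holds CCAAT at 96 and 34 bases and ACGT at 55 bases before the gene start. That of *PHYB* holds CACGTG at 146 and 111 bases and CCAAT at 96 bases, that of *PIF5* holds CACGTG at 165 bases, and that of *PIF4* holds ACGT at 152, 45 and 30 bases. None of these letters is in the *HFR1* window.

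Over the 10 regulators, CCAAT is in 4 windows (*HYH*, *PIF1*, *PHYB* and *CRY1*), beside 46.0% of 27443 promoters of the same length in the genome. CACGTG is in 2 (*PIF5* and *PHYB*), beside 6.49%, and ACGT is in 5 (*HYH*, *PIF4*, *PIF5*, *PHYA* and *PHYB*), beside 44.1%. These are matches of letters, searched on both strands, and not measured binding.

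With loss of *HY5*, every regulator that changed fell. In *hy5* versus Col-0, 4 of the 10 regulators are listed, beside 25.5% of all genes tested, and all 4 fell. *HYH* and *HFR1* are called lower, 2 of 10 beside 4.90% of all genes, and 0 are called higher, beside 7.13%. The median log2 fold change of the 4 listed regulators was -1.001, while that of all genes in the table was 0.27. In *nf-yc triple hy5* versus *nf-yc triple*, 7 of the 10 are listed, beside 22.4%, and all 7 fell. *HYH*, *HFR1*, *PIF4* and *PIF5* are called lower, 4 of 10 beside 4.75%, and 0 are called higher, beside 5.51%. The median there was -0.77, beside 0.25 for all genes in the table. These comparisons have no library in common.

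With loss of the NF-YCs, regulators changed in both directions. In *nf-yc triple* versus Col-0, 4 of 10 are listed, beside 15.2%. *PIF4* is called higher, 1 of 10 beside 3.36%, and *HYH* is called lower, 1 of 10 beside 2.59%, and the median of the 4 was 0.26, beside -0.24 for all listed genes. In *nf-yc triple hy5* versus *hy5*, 3 of 10 are listed, beside 4.76%. *PIF3* is called higher, 1 of 10 beside 0.563%, and *HYH* is called lower, 1 of 10 beside 1.26%, and the median of the 3 was -0.32, beside -0.36. In *nf-yc triple hy5* versus Col-0, 6 of 10 are listed, beside 27.1%. *HYH*, *HFR1* and *PIF5* are called lower, 3 of 10 beside 7.03%, and 0 are called higher, beside 7.67%, and the median of the 6 was -0.61, beside -0.22. The comparisons with Col-0 share the Col-0 libraries.

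**Figure D1:**
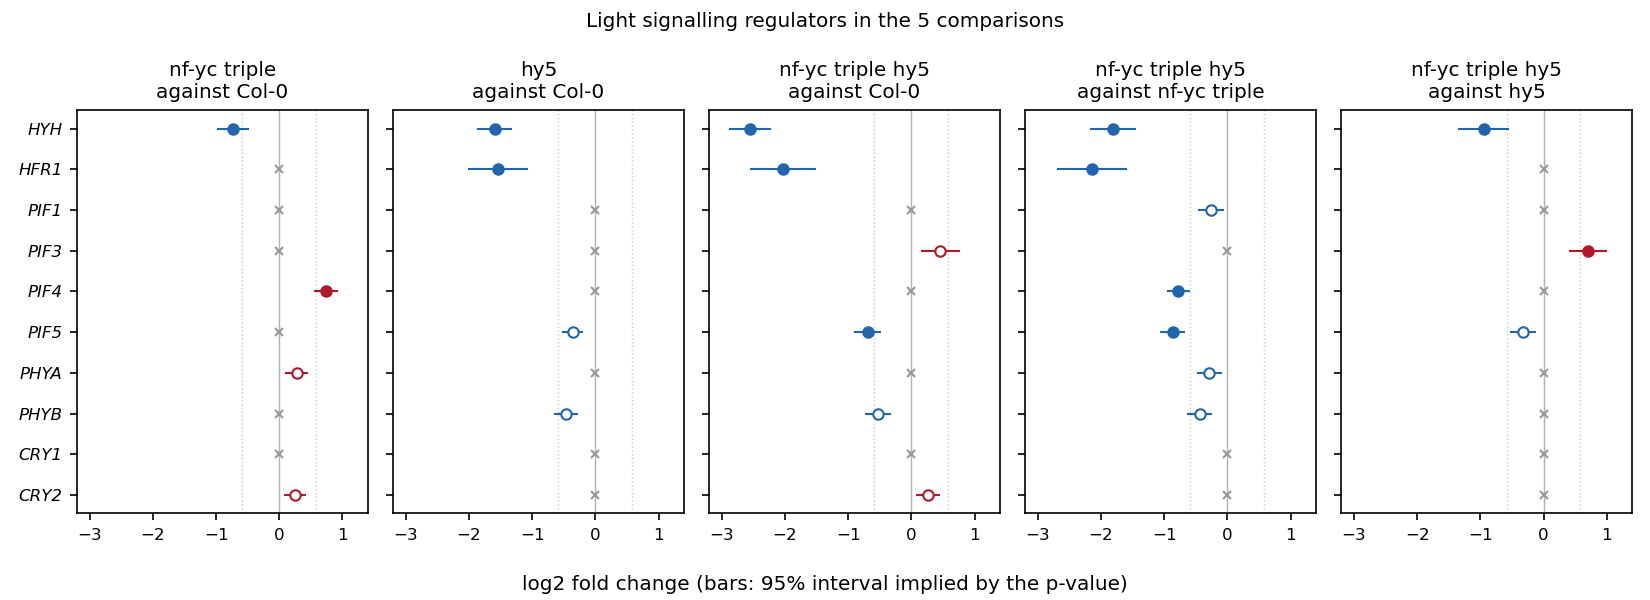
Log2 fold change of each regulator (rows) in each of the 5 comparisons (panels). Points are the deposited values, filled where called and open where listed but under 1.5-fold (dotted lines), bars are 95% intervals implied by the p-values, and a grey cross at 0 marks a gene that is not in the table and has no value there. *HYH* has a filled point left of 0 in all 5 panels, from -0.73 to -2.55.

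A level per genotype was solved from the mean CPM and the log2 fold change of each comparison, with CPM meaning counts scaled to a common library size. Where 2 or more comparisons gave a level for the same gene and genotype (15 cases), the highest estimate was above the lowest by 6.45% at most, with a median of 3.60%. They come from the same libraries, so this is agreement between tables and not replicate error. Per kilobase of the longest RefSeq transcript, the order in Col-0 was *PIF5* (67.1 CPM per kb), *CRY2* (49.8), *HYH* (38.5), *PIF4* (28.1), *PHYA* (21.6), *PHYB* (20.4), *PIF3* (5.56) and *HFR1* (5.08). *PHYA* and *PHYB*, and likewise *PIF3* and *HFR1*, are neighbours in this order whose levels are close, and no spread between libraries is known by which to separate them. *PIF1* has levels in *nf-yc triple* (26.8 CPM per kb) and in *nf-yc triple hy5* (22.5) only.

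**Figure D2:**
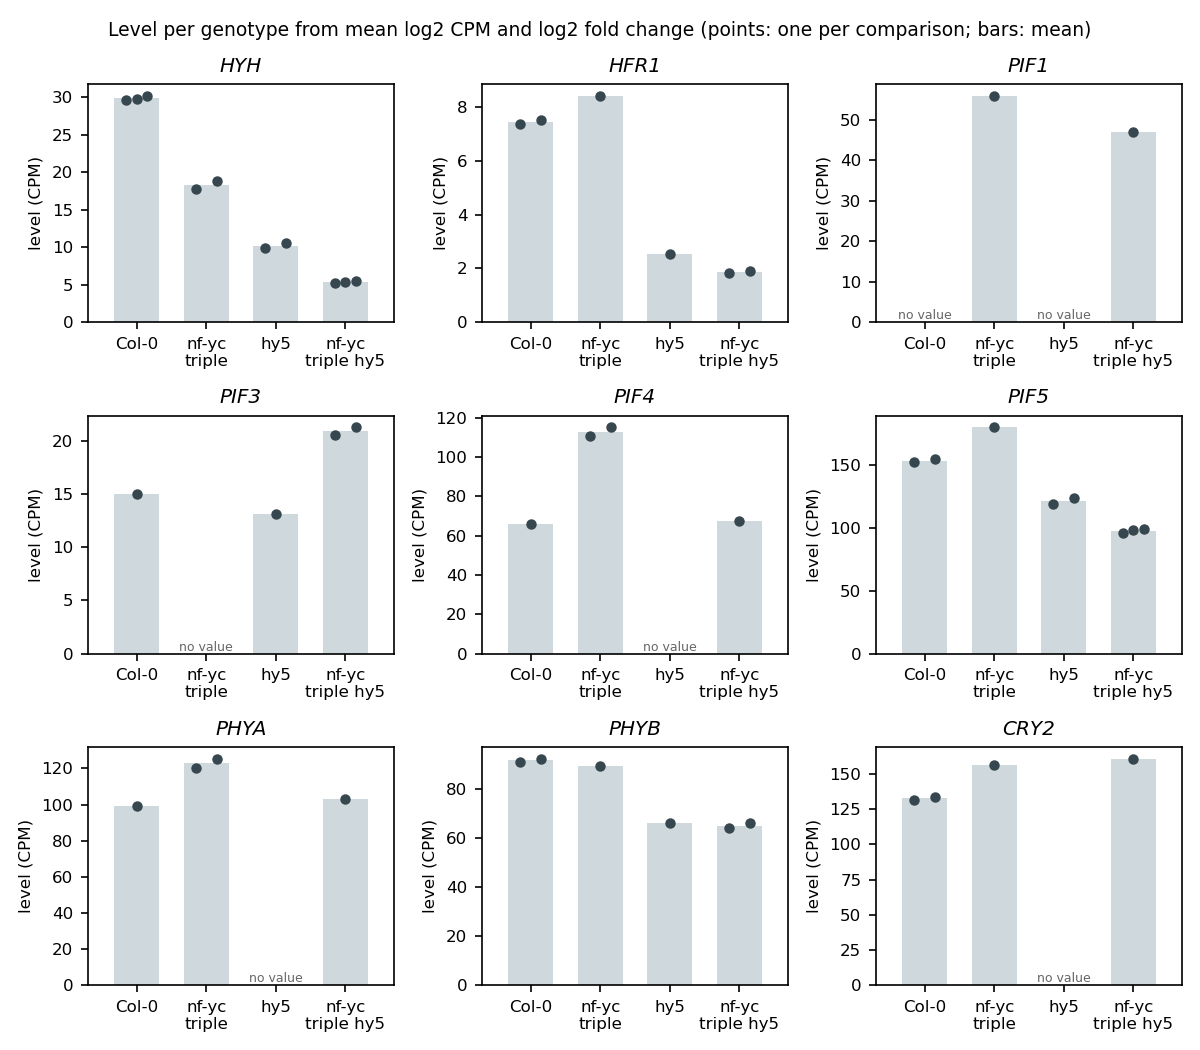
Level in CPM of the 9 regulators with a value (panels) in each genotype. Points are estimates from single comparisons, bars are their mean, and "no value" marks a genotype with no table that gives a level. *HYH* steps down from 29.8 CPM in Col-0 to 5.33 CPM in *nf-yc triple hy5*, whereas *PIF4* is highest in *nf-yc triple* at 112.8 CPM.

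*HYH* encodes the closest homolog of HY5, a bZIP factor that shares part of its role in seedling development. It lies at chr3:6023844-6024710 on the + strand of TAIR10.1. Its level was 29.8 CPM in Col-0, 18.3 in *nf-yc triple*, 10.2 in *hy5*, and it was at 5.33 CPM in *nf-yc triple hy5*. Each mutant was thus below Col-0, at 61.4%, 34.1% and 17.9% of it, and the line with all the alleles was the lowest.

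It is the only one of the 10 listed in all 5 tables. *HYH* fell 1.66-fold in *nf-yc triple* versus Col-0 (log2 fold change -0.73, 95% interval -0.97 to -0.50, adjusted p = 2.91e-08) and 3.02-fold in *hy5* (-1.59, -1.85 to -1.33, adjusted p = 1.35e-31). In *nf-yc triple hy5* it was 5.87-fold lower than in Col-0 (-2.55, -2.87 to -2.24, adjusted p = 1.10e-55). By size of change among genes that were lower in that table, it ranked 47 of 2601. Against the parental lines, *nf-yc triple hy5* was 3.50-fold lower than *nf-yc triple* (-1.81, -2.15 to -1.46, adjusted p = 1.00e-22) and 1.93-fold lower than *hy5* (-0.95, -1.33 to -0.56, adjusted p = 1.11e-04). Both sets of mutations therefore lowered *HYH* in the presence of the other.

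*HFR1* encodes an atypical bHLH protein that binds PIFs into dimers that cannot bind DNA, and so acts against them in light. It lies at chr1:465616-467880 on the - strand. Its level was low, at 7.44 CPM in Col-0 and 8.42 in *nf-yc triple*, against 2.54 CPM in *hy5*, and it was at 1.87 CPM in *nf-yc triple hy5*. The lines with *HY5* were high and those without it low.

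*HFR1* fell 2.90-fold in *hy5* versus Col-0 (log2 fold change -1.54, 95% interval -2.0 to -1.1, adjusted p = 1.34e-09). It fell 4.08-fold in *nf-yc triple hy5* versus Col-0 (-2.03, -2.54 to -1.52, adjusted p = 1.13e-13) and 4.41-fold against *nf-yc triple* (-2.14, -2.68 to -1.60, adjusted p = 2.96e-13). The last of these ranked 42 of 2034 lower genes in its table, ahead of *HYH* at 71. *HFR1* is not in the 2 tables of *nf-yc* loss. The difference of other tables put it at 0.11 in *nf-yc triple* versus Col-0 and at -0.49 in *nf-yc triple hy5* versus *hy5*. The listing limit, a log2 change from which genes of like level tended to be listed, was about 0.65 and 0.74 there. It was taken at the mean level of *HFR1* over the comparisons that list it. The lines of *nf-yc triple hy5* versus *hy5* had less *HFR1*, so 0.74 is likely too low. Those of *nf-yc triple* versus Col-0 had more, so 0.65 is likely too high. Small changes of *HFR1* could thus be missed in both.

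The PIF genes did not move as a group. *PIF4* and *PIF5* encode close relatives that promote hypocotyl growth, shade responses and, for *PIF4* above all, growth in warmth. *PIF4* lies at chr2:17886101-17889087 on the + strand and *PIF5* at chr3:21827905-21830837 on the - strand.

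*PIF4* was at 66.1 CPM in Col-0, 112.8 in *nf-yc triple* and 67.2 in *nf-yc triple hy5*. Its level was therefore high in *nf-yc triple* and close to Col-0 in the line that also lacked *HY5*. It rose 1.67-fold in *nf-yc triple* versus Col-0 (log2 fold change 0.74, 95% interval 0.57 to 0.92, adjusted p = 4.49e-15). It fell 1.71-fold in *nf-yc triple hy5* versus *nf-yc triple* (-0.77, -0.94 to -0.61, adjusted p = 5.14e-18). The difference of these tables puts *nf-yc triple hy5* versus Col-0 at -0.03. In *hy5* versus Col-0, where *PIF4* is not listed, the listing limit was about 0.22. No value of *PIF4* in *hy5* was analysed here, so the effect of *HY5* loss in the 2 backgrounds could not be compared by a test.

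*PIF5* was at 153.1 CPM in Col-0, 179.8 in *nf-yc triple*, 121.1 in *hy5*, and it was at 97.8 CPM in *nf-yc triple hy5*. Both lines without *HY5* were below both lines with it. *PIF5* fell 1.28-fold in *hy5* versus Col-0 (log2 fold change -0.36, 95% interval -0.51 to -0.20, adjusted p = 4.71e-05) and 1.61-fold in *nf-yc triple hy5* versus Col-0 (-0.69, -0.89 to -0.49, adjusted p = 1.50e-10). Against *nf-yc triple* it fell 1.82-fold (-0.87, -1.05 to -0.68, adjusted p = 5.91e-19), and against *hy5* 1.25-fold (-0.32, -0.51 to -0.13, adjusted p = 0.0240). It is not in the table of *nf-yc triple* versus Col-0, where the difference of other tables gives 0.18 and the listing limit was about 0.22.

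*PIF3*, which restrains photomorphogenesis in darkness, rose in each comparison that lists it. It lies at chr1:3075768-3079654 on the + strand, and was at 15.03 CPM in Col-0, 13.1 in *hy5*, and it was at 20.9 CPM in *nf-yc triple hy5*. The last of these was the highest, and there is no level in *nf-yc triple*. *PIF3* rose 1.63-fold in *nf-yc triple hy5* versus *hy5* (log2 fold change 0.70, 95% interval 0.42 to 0.99, adjusted p = 1.09e-04), where it ranked 81 of 338 higher genes. It rose 1.37-fold against Col-0 (0.45, 0.16 to 0.75, adjusted p = 0.0113), under the 1.5-fold limit. It is in none of the other tables, and the difference of tables gives -0.25 in *hy5* versus Col-0, where the listing limit was about 0.34.

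*PIF1*, a repressor of seed germination and of chlorophyll synthesis in darkness, lies at chr2:8704024-8707009 on the - strand. It was at 56.0 CPM in *nf-yc triple* and 47.0 in *nf-yc triple hy5*. It fell 1.19-fold between them (log2 fold change -0.25, 95% interval -0.44 to -0.06, adjusted p = 0.0401) and is in no other table. Exons of *PIF1* overlap those of AT2G20170 on the opposite strand, and whether counting used the strand is not stated, so reads of these genes may not have been told apart.

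Among the photoreceptors, *PHYB* fell with *HY5* loss. *CRY2* rose in both lines with the *nf-yc* alleles against Col-0, and *PHYA* rose in *nf-yc triple*. All these changes were less than 1.5-fold in every table. *PHYB*, the main receptor of red light in green seedlings, lies at chr2:8139756-8144461 on the + strand. It was at 91.8 CPM in Col-0, 89.7 in *nf-yc triple*, 66.1 in *hy5*, and it was at 65.1 CPM in *nf-yc triple hy5*. The lines with *HY5* were high and those without it low, with little between the lines of each pair.

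*PHYB* fell 1.38-fold in *hy5* versus Col-0 (log2 fold change -0.46, 95% interval -0.63 to -0.29, adjusted p = 9.33e-07). It fell 1.44-fold in *nf-yc triple hy5* versus Col-0 (-0.53, -0.73 to -0.33, adjusted p = 1.66e-06) and 1.36-fold against *nf-yc triple* (-0.44, -0.63 to -0.25, adjusted p = 4.78e-05). The differences of tables for *nf-yc* loss were -0.09 in the Col-0 background and -0.06 in *hy5*, and the listing limits were about 0.24 and 0.29.

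*PHYA* perceives far-red light, and its protein is degraded in light. The gene lies at chr1:3095160-3100819 on the - strand, and was at 99.3 CPM in Col-0, 122.8 in *nf-yc triple* and 102.8 in *nf-yc triple hy5*. Of the lines with a level, it was highest in *nf-yc triple*, as *PIF4* was. *PHYA* rose 1.21-fold in *nf-yc triple* versus Col-0 (log2 fold change 0.28, 95% interval 0.11 to 0.45, adjusted p = 0.0121) and fell 1.22-fold in *nf-yc triple hy5* versus *nf-yc triple* (-0.29, -0.47 to -0.10, adjusted p = 0.0155).

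*CRY2*, a blue-light receptor with a role in flowering time, lies at chr1:1185512-1188696 on the - strand. It was at 132.6 CPM in Col-0, 156.2 in *nf-yc triple* and 160.8 in *nf-yc triple hy5*. Both lines with the *nf-yc* alleles were above Col-0. *CRY2* rose 1.19-fold in *nf-yc triple* (log2 fold change 0.25, 95% interval 0.09 to 0.41, adjusted p = 0.0173) and 1.20-fold in *nf-yc triple hy5* (0.26, 0.09 to 0.43, adjusted p = 0.0124), both against the same Col-0 libraries. It was the only regulator that rose in both. In *nf-yc triple hy5* versus *hy5* it is not listed, and the listing limit there was about 0.26. *CRY1*, the other cryptochrome of the nucleus and cytoplasm (chr4:5723651-5727268 on the + strand), has no level or limit here.

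The effect of *HY5* loss could be set side by side in the 2 backgrounds for the 4 regulators listed in both tables. The difference, *nf-yc triple* background minus Col-0 background on the log2 scale, was -0.51 for *PIF5* (95% interval -0.75 to -0.27), so its fall was larger where the NF-YCs were also reduced. It was -0.60 for *HFR1* (-1.32 to 0.11), -0.21 for *HYH* (-0.65 to 0.22) and 0.02 for *PHYB* (-0.23 to 0.27), intervals that hold 0. For *HYH* these data thus allow an effect of *HY5* loss between 0.65 stronger and 0.22 weaker with the *nf-yc* alleles present. Over all 2725 genes listed in both tables the median difference was -0.01, and the interval left out 0 for 23.9% of them. These intervals were not adjusted for the number of genes. The lines compared in the *nf-yc triple* background also differ in *NF-YC9* transcript, as given above, and its part in these differences was not tested.

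**Figure D3:**
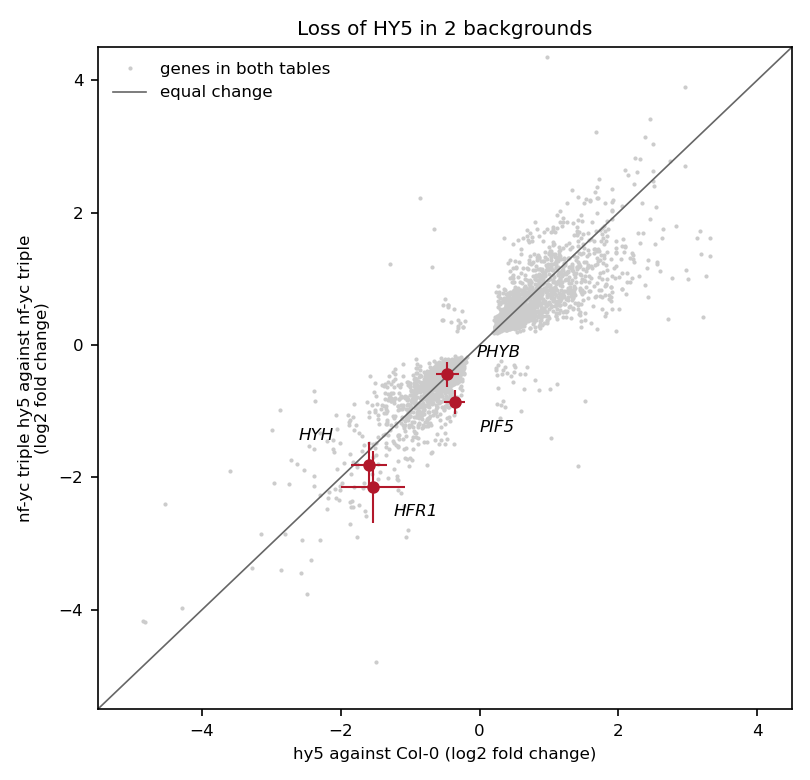
Log2 fold change with *HY5* loss in Col-0 (x axis) and in *nf-yc triple* (y axis). Grey points are the 2725 genes listed in both tables, red points the 4 regulators listed in both with 95% intervals, and the line marks equal change. *PIF5* lies below the line, with -0.36 on the x axis and -0.87 on the y axis, and the bars of *HYH* and *PHYB* cross it.

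Genes with the pattern most like each regulator were found by the Euclidean distance over log2 fold changes, for regulators listed in at least 3 tables. For *HYH*, over 5 tables and 281 genes, they were *AFR* (AT2G24540, distance 0.201), an F-box gene whose loss attenuates far-red responses, *scpl10* (AT2G23000, 0.218) and *RVE8* (AT3G09600, 0.232), a MYB-like factor of the clock. *AFR* was at -0.66 in *nf-yc triple*, -1.55 in *hy5*, and stood at -2.62 in *nf-yc triple hy5* versus Col-0. For *HFR1*, over 3 tables and 2443 genes, they were *ACA2* (AT2G28210, 0.138), a carbonic anhydrase gene, AT5G48490 (0.217) and AT1G34580 (0.267). For *PIF5*, over 4 tables and 409 genes, they were *ATMDAR2* (AT5G03630, 0.113), *HSP70* (AT3G12580, 0.156) and AT4G29270 (0.158). For *PHYB*, over 3 tables and 2443 genes, they were AT5G22860 (0.0251), *CB5-B* (AT2G32720, 0.0331) and AT3G56060 (0.0336). The distances are descriptions over tables that share libraries.

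Other light signalling genes, 68 in 5 lists, were counted for context. In *hy5* versus Col-0, 5 of the 68 are called higher and 12 lower, beside 7.13% and 4.9% of all genes. In *nf-yc triple hy5* versus Col-0 they were 5 and 15, beside 7.67% and 7.03%. Versus *nf-yc triple* they were 3 and 12, beside 5.51% and 4.75%. Loss of NF-YCs gave 2 higher and 1 lower against Col-0, beside 3.36% and 2.59%. Against *hy5* it gave 0 and 1, beside 0.563% and 1.26%.

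Of 10 other photoreceptors, *CRY3*, a cryptochrome of plastids and mitochondria, and *FKF1*, a blue-light F-box protein of flowering control, are called. In *hy5* versus Col-0 that is 1 of 10 higher, beside 7.13% of all genes, and 1 of 10 lower, beside 4.9%. *CRY3* fell in *hy5* (log2 fold change -2.39, adjusted p = 1.11e-70) and *nf-yc triple hy5* (-2.29, adjusted p = 5.78e-61) against Col-0, by far more than *CRY2*, *PHYA* or *PHYB* changed. *FKF1* rose by 1.29 and 1.25 (adjusted p = 1.95e-23 and 8.72e-21). The phytochrome gene *PHYE* fell by 0.45 in *hy5* (adjusted p = 2.97e-05), close to *PHYB*, and *PHYC* and *PHYD* are in no table.

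Of 12 other bHLH genes, *UNE10* (AT4G00050) is called lower with *HY5* loss in both backgrounds, and *PIF7* is called in the *nf-yc triple* background. That is 1 of 12 lower in *hy5* versus Col-0, beside 4.9% of all genes, and 2 of 12 versus *nf-yc triple*, beside 4.75%. Called higher were 3 of 12 in *hy5* versus Col-0, beside 7.13%, and 2 in *nf-yc triple* versus Col-0, beside 3.36%. *UNE10* is in all 5 tables, like *HYH*, at -0.55 in *nf-yc triple*, -1.33 in *hy5*, and stood at -1.92 in *nf-yc triple hy5* versus Col-0 (adjusted p = 1.26e-06, 1.51e-27 and 4.88e-53). *PIF7*, a phytochrome-interacting factor of shade responses, was at -0.47 in *hy5* versus Col-0, listed but under 1.5-fold. It was at -0.86 in *nf-yc triple hy5* versus Col-0 and at -0.81 versus *nf-yc triple*, both called. *PAR1*, which like *HFR1* acts against PIFs without binding DNA, rose in each line against Col-0, at 0.97, 0.88 and 1.21 (adjusted p = 2.34e-04, 0.00120 and 1.16e-04), the reverse of *HFR1* in lines without *HY5*. *ALC* rose by 0.71 and *SPT* by 0.67 in *hy5*, and *PIF6* by 0.70 in *nf-yc triple*.

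The 11 genes of the COP, DET and SPA complexes and of PIF or phytochrome turnover gave no higher gene in any table. Of all genes tested, only 0.563% to 7.67% are called higher, depending on the comparison. In *hy5* versus Col-0, 5 of the 11 are listed, beside 25.5% of all genes, and all fell. *COP1* (log2 fold change -0.62, adjusted p = 7.90e-10) and *SPA3* (-0.78, adjusted p = 6.90e-15) are called lower, beside 4.9%. In *nf-yc triple hy5* versus Col-0, 5 are listed, beside 27.1%, and all fell. *COP1* (-0.61), *SPA1* (-0.75), *SPA3* (-0.78) and *SPA4* (-0.63) are called lower there, beside 7.03%. COP1 is the ubiquitin ligase that degrades HY5 in darkness, and the SPA proteins are its partners.

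Of 19 further genes, 6 are called lower in *hy5* versus Col-0, beside 4.9% of all genes. In *nf-yc triple hy5* versus Col-0, 6 are called lower, beside 7.03%. In every comparison 0 are called higher, beside 0.563% to 7.67% of all genes. AT3G52740 fell the most of the 6 named ones, at -0.55, -1.85 and -3.01 in the *nf-yc triple*, then *hy5*, then *nf-yc triple hy5* seedlings versus Col-0 (adjusted p = 0.00234, 1.10e-23 and 4.63e-44), and its relative AT3G44450 was at -0.51, -0.60 and -1.09. *GLK1* and *GLK2*, factors of chloroplast development, fell by 0.89 and 0.60 in *hy5*. *PKS4* and *PKS2*, phytochrome kinase substrates of phototropic growth, fell by 1.30 and 0.84 there, and *PKS4* rose by 0.52 in *nf-yc triple* (adjusted p = 0.0165).

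Of the 16 genes that PIFs induce in shade or growth, at most 7 are listed in any 1 comparison. That was so in *nf-yc triple hy5* versus Col-0, beside 27.1% of all genes, and versus *nf-yc triple*, beside 22.4%. The listed ones changed in both directions in each of the 4 comparisons that list any. In *nf-yc triple* versus Col-0, where *PIF4* rose, 3 of the 16 are listed, beside 15.2%. These were *XTH15* at 0.47, *PRE6* at -0.36 and *CKX5* at -0.98 (adjusted p = 0.00537, 0.0356 and 5.92e-04). In *nf-yc triple hy5* versus *nf-yc triple*, where *PIF4* and *PIF5* fell, 2 are called higher and 3 lower, beside 5.51% and 4.75%. *PRE1* was at -1.54, *YUC8*, an auxin synthesis gene, at -1.22 and *PRE6* at -0.96. The 2 called higher were *CKX5* at 0.84 and *IAA19* at 0.64 (adjusted p = 0.00365 and 0.0392). *ATHB2*, a shade marker, was at 0.44, listed but not called. *ATHB2* rose by 0.71 and *PRE6* fell by 1.35 in *hy5* versus Col-0.

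**Figure D4:**
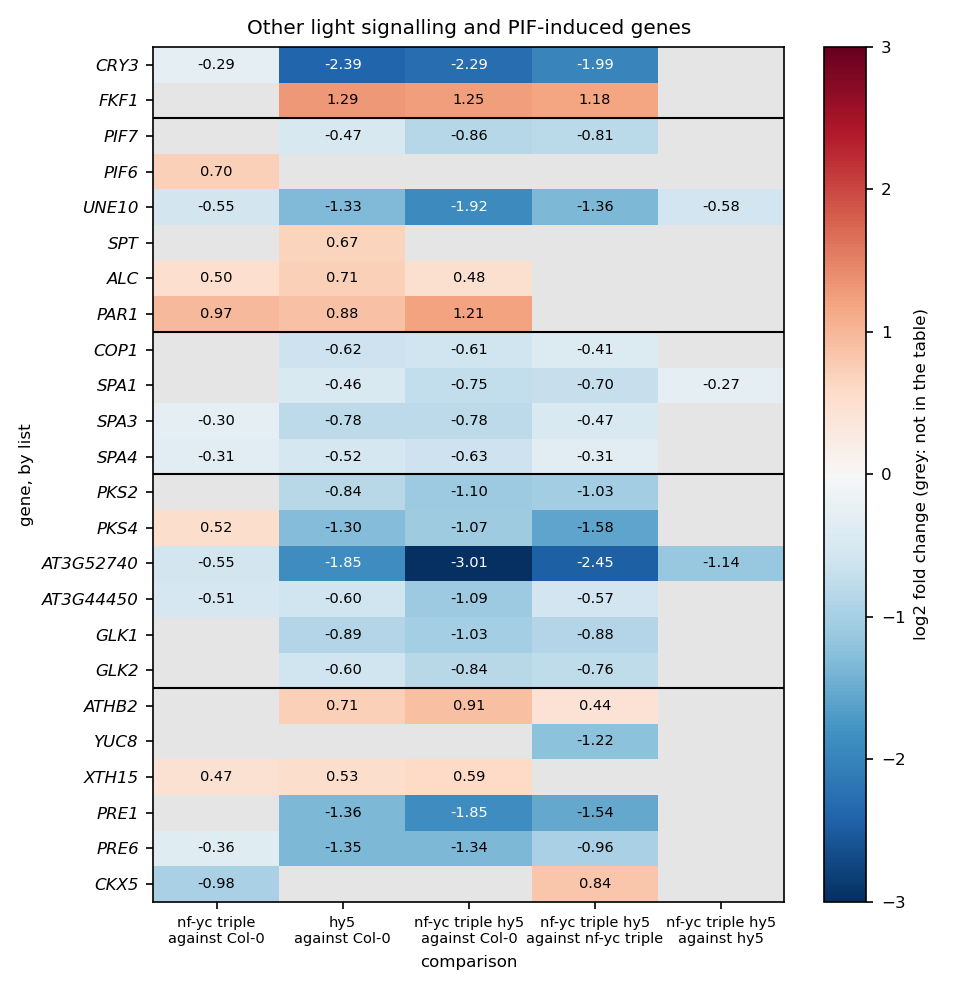
Log2 fold change (number and colour) of the named genes of the 5 lists (rows) in the 5 comparisons (columns), grey where a gene is not in the table. Black lines separate, from the top, other photoreceptors, other bHLH factors, the COP and SPA genes, further light signalling genes and shade or PIF-induced genes. The COP and SPA block holds values below 0 only, from -0.27 to -0.78, and AT3G52740 reaches -3.01.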

How the data were processed

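The sequenced RNA came from 2 libraries for each of 4 genotypes. The authors demultiplexed reads with CASAVA 1.8.2, mapped them to TAIR10 gene models and tested pairs of genotypes with edgeR, with version, filters and use of molecular indices not given in the sources used here. The deposited log2 values are a log2 fold change and a mean log2 CPM per comparison, and the p-values and adjusted p-values are also the authors'. These comparison columns are the only measurements used, because the regulators are defined as rows of these tables. A signed fold column, a score the authors derived from the log2 value, was not used. No source says whether a genotype was sown separately for each library, so p-values may measure technical spread.

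Standard errors were taken as the log2 fold change over the normal quantile of its p. The size of each test family was recovered from p, its rank and adjusted p. A listing limit is a median such error times the quantile at the highest listed p, and is approximate. The median was over listed genes within 0.25 of the gene's mean log2 CPM, averaged over the comparisons that list it. Listed genes passed the threshold, so their errors may be small, and a gene that changed beyond the limit can still be missed. A value missing from a table was taken as the difference of 2 other tables where possible, without a test. Over 961 and 467 genes such differences left a median of 0.01 against the listed value.

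The members and lists were chosen with earlier results of these data known. Named were all 10 regulators, up to 6 called genes per list by smallest adjusted p, the mutated genes, and the 3 nearest genes per regulator. *PHYE*, *PHYC*, *PHYD* and *IAA19* were chosen outside the rule, with their values already seen. Alternatives were other fold and adjusted p thresholds, the differences of tables, and promoters extended by 50 bases. Positions are those of the RefSeq TAIR10.1 annotation, matched by AGI identifier, and the files hold none. AT3G52740 and AT3G44450 have no name in the files or that reference. Python 3.11.15, pandas 2.3.3, NumPy 2.4.6, SciPy 1.17.1 and matplotlib 3.10.9 were used.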

Additional observations from a re-analysis of the deposited data

Results flagged for a closer look

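Of 21 regulators and named list genes listed in both comparisons of *HY5* loss, 6 had a difference between backgrounds (*nf-yc triple* minus Col-0, log2 scale) whose 95% interval left out 0, beside 23.9% of all genes in both tables. *PIF5* was at -0.51 (-0.75 to -0.27), AT3G52740 at -0.60 (-1.14 to -0.06), *PIF7* at -0.34 (-0.67 to -0.02) and *SPA1* at -0.24 (-0.46 to -0.01), falls that were larger with the *nf-yc* alleles present. *CRY3* at 0.40 (0.02 to 0.77) and *SPA3* at 0.32 (0.06 to 0.57) fell less there. The change with *nf-yc* loss in *hy5* minus that in Col-0 was -0.60 (-1.16 to -0.03) for AT3G52740 and 0.72 (0.38 to 1.06) for the mutated gene *NF-YC9*. The intervals are approximate and not adjusted for the number of genes.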

How the results depend on the processing

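With no fold threshold, there were 3 higher regulators in *nf-yc triple* versus Col-0 and 2 in *nf-yc triple hy5* versus Col-0, 4 were lower in *hy5* versus Col-0, and 7 and 2 were lower in *nf-yc triple hy5* versus *nf-yc triple* and *hy5*. At 2-fold, 0 were higher and 0 lower in *nf-yc triple* versus Col-0 and in *nf-yc triple hy5* versus *hy5*, and 2 were lower in *nf-yc triple hy5* versus *nf-yc triple*. Of the 68 list genes with no fold threshold, 6 were higher and 8 lower in *nf-yc triple* versus Col-0, 9 higher in *hy5* versus Col-0, 9 higher in *nf-yc triple hy5* versus Col-0, 6 higher and 22 lower in *nf-yc triple hy5* versus *nf-yc triple*, and 3 lower against *hy5*. At 2-fold these were 0 and 0 in *nf-yc triple*, 1 and 6 in *hy5* versus Col-0, 3 and 9 in *nf-yc triple hy5* versus Col-0, and 1 and 7 in *nf-yc triple hy5* versus *nf-yc triple*. These counts move by construction with the threshold. With no fold threshold, 4.76% to 27.1% of all genes are listed in a comparison, in either direction. Shares of all genes by direction at that setting, and at 2-fold, were not computed. The counts at these thresholds are therefore not set against all genes. An adjusted p under 0.01 moved no count by over 1.5 times. The 9 log2 fold changes of regulators that could also be had as differences of tables changed by 0.013 at most, and the *HYH* difference between backgrounds was -0.21 by either pair of tables. With promoters extended by 50 bases, ACGT was in 6 windows, *HFR1* included, beside 49.9% of promoters. No paired analysis was possible because the tables hold no value per library, and for the same reason leaving out a library was not run. Without library values, depth, outlying libraries and batches could not be examined, and a small change of a gene at a low level such as *HFR1* could not be detected.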
